A study of Homo sapiens with 10 samples.

Results

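Oxidative phosphorylation subunit genes are the nuclear genes that encode the protein subunits of the mitochondrial respiratory chain and ATP synthase. They were taken by symbol, as every protein-coding gene starting NDUFA, NDUFB, NDUFC, NDUFS or NDUFV (assembly factors starting NDUFAF were left out), SDHA to SDHD, UQCR, CYC1, COX4 to COX8 or ATP5. The rule gave 91 genes, of which 2 were readthrough genes and 89 encode subunits or copies of them. A probe set that names a single gene measured 76 of these, among 22462 genes measured in all. By complex, 31 of 37 genes of complex I, 2 of 4 of complex II, 8 of 10 of complex III, 19 of 19 of complex IV and 16 of 19 of complex V were measured. A further 9 were covered only by probe sets that name several genes (NDUFA11, NDUFA13, NDUFB8, NDUFC2, NDUFS8, UQCRH, ATP5F1E, ATP5MF and ATP5MK), and the remaining 4 were not analysed here. NDUFA4 and NDUFA4L2, whose current symbols in the RefSeq gene table are COXFA4 and COXFA4L2, were kept under the symbols of the rule and counted with complex IV, with which NDUFA4 is known to associate. UQCRHL and ATP5MGL are near-identical copies of UQCRH and ATP5MG, so their values are uncertain.

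All arrays held total RNA of 786-O cells, an established human clear-cell renal carcinoma line without functional VHL, infected with lentivirus and selected with puromycin at 2 ug/ml, controls included. The groups were ZHX2 hairpin 45, ZHX2 hairpin 44 and a scrambled hairpin in a table of 6 arrays, and p65 shRNA and its control shRNA in a separate table of 4 arrays, with 2 arrays in each of the 5 groups. ZHX2 is a zinc-finger and homeobox transcription factor, and p65, encoded by RELA, is the activating subunit of NF-kB. The labels do not say whether the 2 arrays of a group came from separate cultures or infections, so the p-values describe no more than the spread among these arrays, which may be technical. Values are log2 signals from RMA, a procedure that subtracts background, normalizes arrays and combines the probes of a probe set. Each table was taken to have been normalized on its own, so levels were set side by side only within a table.

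Oxidative phosphorylation passes electrons from NADH at complex I and from succinate at complex II, through ubiquinone and complex III to cytochrome c, and on to oxygen at complex IV. The protons pumped by complexes I, III and IV drive complex V, the ATP synthase. Complexes I, III, IV and V also hold subunits encoded in mitochondrial DNA, of which 0 of 13 were measured by a probe set naming a single gene. Clear-cell renal carcinoma cells that lack VHL keep hypoxia-inducible factors active, and are known for high glycolysis and low respiration.

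ZHX2 signal was 8.93 and 9.02 with hairpin 45, 9.35 and 9.38 with hairpin 44, and 10.58 and 10.43 in scrambled cells. It fell in both knockdowns. Against scrambled cells hairpin 45 gave a change of -1.53 (SE 0.0862, limma adjusted p = 9.24e-04), while hairpin 44 gave -1.14 (SE 0.0862, limma adjusted p = 0.00528). RELA signal was 5.04 and 5.28 with p65 shRNA, against 7.64 and 7.67 with control shRNA, a difference of -2.50 that missed the threshold (SE 0.178, limma adjusted p = 0.0736). Correlation between replicate arrays over all genes was 0.993 to 0.9954 in the ZHX2 table and 0.985 to 0.9867 in the p65 table. The interquartile range of an array was widest with hairpin 45, at 2.93 and 2.94 with hairpin 45, 2.88 and 2.90 with hairpin 44, and 2.80 and 2.89 in scrambled cells. The 8 markers of the line ranked above 61.1% to 99.7% of genes in the ZHX2 table and 42.3% to 98.8% in the p65 table, KRT18 being the lowest in each. After ZHX2 knockdown CDH6 (-1.92), NNMT (-0.45), PAX8 (-0.38) and PAX2 (-0.36) were called lower and KRT18 (0.62) higher, and the mean log2 signal of the 8 was 9.56 and 9.50 with hairpin 45, 9.73 and 9.73 with hairpin 44, and 9.95 and 9.85 in scrambled cells. Markers of leukocytes and endothelium, 3 each, ranked at 33.2% or lower in both tables with 0 called. Of 3 fibroblast markers DCN ranked at 7.31% or lower, while COL1A1 and LUM ranked between 46.1% and 76.2%, and LUM was called lower after ZHX2 knockdown (-0.95). The mean of these 3 was 5.43 and 5.45 with hairpin 45, 5.53 and 5.46 with hairpin 44, and 5.96 and 5.94 in scrambled cells. The part of these markers in the subunit results was not tested. With p65 shRNA 0 markers were called. The number of arrays limits the precision.

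The first comparison, of the 4 ZHX2 hairpin arrays (each hairpin weighted equally) with the 2 scrambled arrays, asked which subunit genes change when ZHX2 is reduced. Subunit genes of complexes I, III, IV and V were called higher after ZHX2 knockdown. For complex IV the share was near that of all genes (15.8% beside 11.9%). Where genes below the 40th percentile of mean signal were left out, it was 42.9%, beside 27.6% of the genes kept. With all genes in the fit, no subunit gene was called lower. Of 76 measured, 25 passed limma's test at an adjusted p under 0.05 in the higher direction (32.9%) and 0 in the lower, beside 11.9% of all genes called higher and 6.41% called lower. The changes were small. The median over the 76 genes was 0.20 on the log2 scale, or 1.15-fold, against a median of -0.00421 over all genes, and 9 of the 76 differences were negative. Before adjustment, 45 genes (59.2%) had a p under 0.05, against 32.2% of all genes. In 52 genes (68.4%) all 4 hairpin arrays lay above both scrambled arrays, beside 21.8% of all genes. In 2 genes, COX4I2 and COX7B2, all 4 lay below both, beside 16.5% of all genes.

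The count changed when single arrays were left out. It was 5 of 76 without scrambled replicate 2 (beside 4.46% of all genes called higher), 10 and 7 without hairpin 45 replicates 1 and 2 (6.05% and 5.82%), 8 and 9 without hairpin 44 replicates 1 and 2 (6.39% and 6%), and 26 without scrambled replicate 1 (10.3%), while the median lay between 0.185 and 0.231. NDUFAB1, NDUFB6, NDUFS3, UQCRHL and ATP5MC1 stayed called whichever array was left out. The other 20 calls were each lost without 1 array or more, with adjusted p of up to 0.154, and 2 of them, NDUFB3 and COX8A, only without scrambled replicate 2 (adjusted p = 0.0596 and 0.0523). After a further quantile normalization of the arrays, which removes the difference in interquartile range between groups, 17 genes were called higher and 0 lower, with a median of 0.16, beside 9.39% and 8.29% of all genes. Among genes at or above the 40th percentile of mean signal, which kept 71 of the 76 and left out COX6A1, COX6B2, COX7A1, COX7B2 and COX8C, 41 were called higher and 1, COX4I2, lower, beside 27.6% and 13.9% of the genes kept. In RNA from a whole culture, a change in the mix of cells and a change in RNA per cell cannot be told apart.

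**Figure D1:**
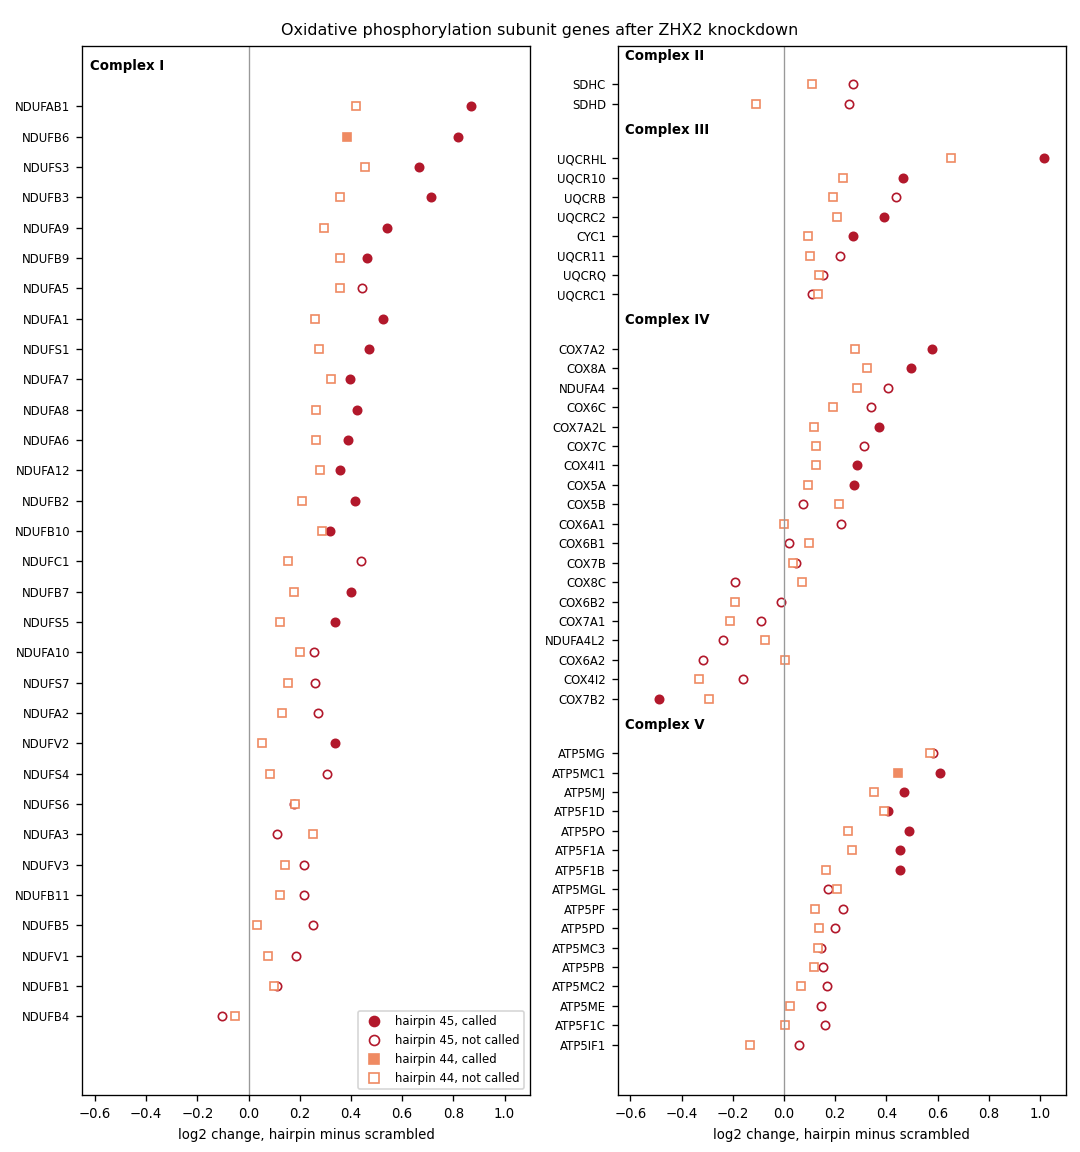
Log2 change of each of the 76 measured genes, hairpin minus scrambled, grouped by complex and ordered by the mean of both hairpins. Circles are hairpin 45 and squares hairpin 44, filled where limma's adjusted p was under 0.05, and most genes of complexes I, III and V lie to the right of 0 while most values of the isoforms at the foot of complex IV lie at or left of it.

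Complex I, which oxidises NADH, had the highest share, with 14 of 31 genes called higher (45.2%), 0 lower and a median of 0.30. All 4 hairpin arrays lay above both scrambled arrays in 27 of the 31. NDUFAB1, which encodes the mitochondrial acyl carrier protein and also serves fatty acid and lipoate synthesis, had signals of 9.00 and 9.02 with hairpin 45, 8.64 and 8.48 with hairpin 44, and 8.21 and 8.07 in scrambled cells. Its difference was 0.64 (SE 0.0795, limma adjusted p = 0.00573), or 1.56-fold, and no hairpin array reached down to the scrambled arrays. NDUFB6, an accessory subunit of the membrane arm, had signals of 7.23 and 7.34 with hairpin 45, 6.89 and 6.81 with hairpin 44, and 6.50 and 6.43 in scrambled cells. It was 1.52-fold higher, a log2 change of 0.60 (SE 0.0710, limma adjusted p = 0.00519), and its hairpin 45 arrays lay above its hairpin 44 arrays. NDUFB3, also a membrane arm accessory subunit, stood at 7.99 and 8.14 with hairpin 45, 7.64 and 7.77 with hairpin 44, and 7.39 and 7.31 in scrambled cells, a difference of 0.53 (SE 0.0805, limma adjusted p = 0.00989) with the groups in the same order.

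The nuclear core subunits form the arm of the complex that takes electrons from NADH and hands them to ubiquinone. Of 5 measured, 2 were called higher, with a median of 0.21. NDUFS3 had signals of 9.42 and 9.47 with hairpin 45, 9.27 and 9.20 with hairpin 44, and 8.92 and 8.64 in scrambled cells, a difference of 0.56 (SE 0.0941, limma adjusted p = 0.0131). Scrambled arrays of NDUFS3 differed from each other more than those of either hairpin did, yet both lay below all 4 hairpin arrays. NDUFS1, the largest subunit and a carrier of iron-sulfur clusters, had signals of 9.84 and 9.83 with hairpin 45, 9.60 and 9.67 with hairpin 44, and 9.40 and 9.33 in scrambled cells, a difference of 0.37 (SE 0.0646, limma adjusted p = 0.0143). NDUFV1, which binds NADH, NDUFV2 and NDUFS7, the other core subunits measured, differed by 0.13, 0.19 and 0.21 and were not called (limma adjusted p = 0.369, 0.105 and 0.109).

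Of 26 accessory subunits of complex I, 12 were called higher, with a median of 0.30. By symbol, 7 of 11 NDUFA genes, 5 of 10 NDUFB genes, 2 of 6 NDUFS genes, 0 of 3 NDUFV genes and 0 of 1 NDUFC gene were called. Besides NDUFAB1, NDUFB6 and NDUFB3, the called accessory genes were NDUFA9 (0.42), NDUFB9 (0.41), NDUFA1 (0.39), NDUFA7 (0.36), NDUFA8 (0.34), NDUFA6 (0.32), NDUFA12 (0.32), NDUFB10 (0.30) and NDUFB7 (0.29). NDUFA9, which sits near the ubiquinone site, had a second probe set, not used in the counts, with a difference of -0.13 (limma adjusted p = 0.731), so its probe sets disagreed. NDUFB4 was the sole gene of complex I with a negative difference. Its signals were 7.89 and 7.91 with hairpin 45, 7.91 and 7.99 with hairpin 44, and 8.07 and 7.94 in scrambled cells, a difference of -0.08 (SE 0.0711, limma adjusted p = 0.514), and its groups overlapped.

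Complex II, the succinate dehydrogenase that also works in the TCA cycle, had 2 genes measured and 0 called in limma, and 0 had an unadjusted p under 0.05. SDHC and SDHD encode the pair of membrane anchors. SDHC had signals of 9.55 and 9.57 with hairpin 45, 9.44 and 9.35 with hairpin 44, and 9.42 and 9.16 in scrambled cells, a difference of 0.19 (SE 0.0906, limma adjusted p = 0.215). Scrambled arrays of SDHC spread widely and overlapped those of hairpin 44. SDHD had signals of 8.47 and 8.42 with hairpin 45, 8.10 and 8.06 with hairpin 44, and 8.19 and 8.19 in scrambled cells, so hairpin 45 lay above the scrambled arrays and hairpin 44 below them, and the mean difference was 0.07 (SE 0.0621, limma adjusted p = 0.495).

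Complex III, which passes electrons from ubiquinol to cytochrome c, had 2 of 8 genes called higher (25%) and a median of 0.24. UQCR10, a small accessory subunit, had signals of 10.34 and 10.46 with hairpin 45, 10.15 and 10.17 with hairpin 44, and 9.90 and 9.96 in scrambled cells, a difference of 0.35 (SE 0.0691, limma adjusted p = 0.0216). Its call was lost after quantile normalization, and it was among the calls lost when single arrays were left out. UQCRHL was the other call, with signals of 9.08 and 9.16 with hairpin 45, 8.80 and 8.71 with hairpin 44, and 8.36 and 7.85 in scrambled cells, a difference of 0.83 (SE 0.144, limma adjusted p = 0.0142). This was the largest difference among the 76 genes, but the probe set that names both UQCRH and UQCRHL differed by 0.09 (limma adjusted p = 0.746), so the probe sets of this pair disagreed. The core subunits UQCRC1, UQCRC2 and CYC1, the last of which is cytochrome c1, were not called. UQCRC2, at 11.08 and 11.16 with hairpin 45, 10.93 and 10.95 with hairpin 44, and 10.83 and 10.64 in scrambled cells, missed the threshold narrowly, with a difference of 0.30 (SE 0.0788, limma adjusted p = 0.0505). UQCRC1, at 9.22 and 9.28 with hairpin 45, 9.30 and 9.25 with hairpin 44, and 9.20 and 9.09 in scrambled cells, had a difference of 0.12 (SE 0.0688, limma adjusted p = 0.290), and its arrays with both hairpins were close together.

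Complex V makes ATP in its catalytic head as the c ring turns. It had 6 of 16 genes called higher (37.5%) and a median of 0.18. In the head 3 of 4 were called, and these were ATP5F1D (0.40), ATP5F1A (0.36) and ATP5F1B (0.31), the last encoding the catalytic beta subunit. ATP5F1B had signals of 12.79 and 12.79 with hairpin 45, 12.50 and 12.51 with hairpin 44, and 12.34 and 12.33 in scrambled cells, differing by 0.31 over both hairpins (SE 0.0600, limma adjusted p = 0.0203), and its replicate arrays differed little within each group. Leaving out any 1 array ended this call, with limma adjusted p between 0.0524 and 0.0736. ATP5F1C, the gamma subunit of the central stalk, was not called and had signals of 10.96 and 10.98 with hairpin 45, 10.81 and 10.83 with hairpin 44, and 10.81 and 10.82 in scrambled cells, with a difference of 0.08 (SE 0.0602, limma adjusted p = 0.416). Its hairpin 44 arrays fell within the scrambled range or close to it.

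The c ring protein is encoded by 3 genes, which give the same mature protein. Of these ATP5MC1 was called, at 8.64 and 8.58 with hairpin 45, 8.42 and 8.47 with hairpin 44, and 8.09 and 7.91 in scrambled cells, a difference of 0.53 (SE 0.0773, limma adjusted p = 0.00925) or 1.44-fold, while ATP5MC2 and ATP5MC3 differed by 0.12 and 0.14 (limma adjusted p = 0.305 and 0.322). In the peripheral stalk, which holds the head still, 1 of 4 was called. This was ATP5PO, at 7.83 and 7.83 with hairpin 45, 7.60 and 7.59 with hairpin 44, and 7.39 and 7.29 in scrambled cells, a difference of 0.37 (SE 0.0648, limma adjusted p = 0.0150). ATP5MJ, a small membrane subunit, had signals of 7.91 and 7.99 with hairpin 45, 7.90 and 7.76 with hairpin 44, and 7.50 and 7.46 in scrambled cells, a difference of 0.41 (SE 0.0722, limma adjusted p = 0.0151). ATP5MG had the largest difference of the complex, 0.57, but its scrambled arrays lay at 6.93 and 6.38, and it was not called (SE 0.170, limma adjusted p = 0.0694). ATP5IF1, the inhibitor that blocks ATP hydrolysis by the enzyme, had signals of 7.79 and 7.85 with hairpin 45, 7.63 and 7.61 with hairpin 44, and 7.73 and 7.79 in scrambled cells, a difference of -0.04 (SE 0.0636, limma adjusted p = 0.743).

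**Figure D2:**
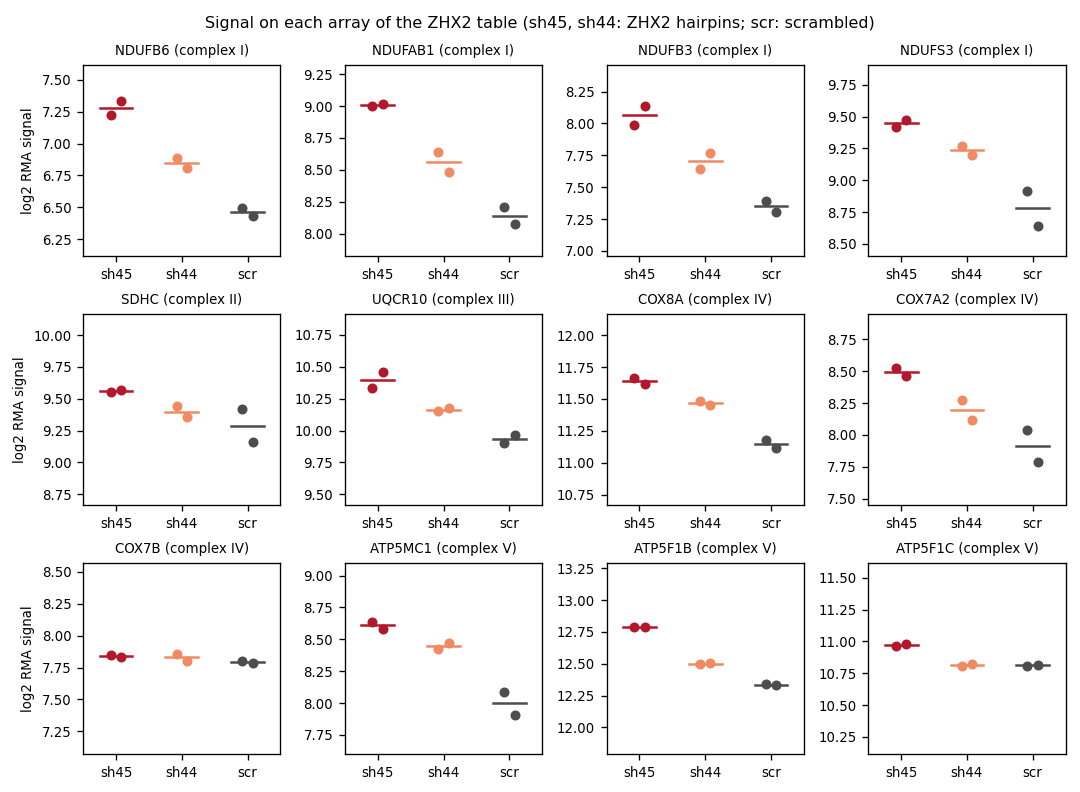
Log2 RMA signal on each of the 6 arrays of the ZHX2 table for 12 subunit genes of complexes I to V, with hairpin 45, hairpin 44 and scrambled from left to right. Points are arrays and lines are group means, each panel has its own range of equal width, and NDUFB6, NDUFAB1 and NDUFB3 lie highest with hairpin 45, next with hairpin 44 and lowest in scrambled cells while the groups of COX7B overlap.

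Complex IV, cytochrome c oxidase, had 3 of 19 genes called higher (15.8%), a share near the 11.9% of all genes, and a median of 0.11. Among genes at or above the 40th percentile of mean signal, 6 of 14 were called higher (42.9%) and 1 lower. Of all the genes kept there, 27.6% were called higher and 13.9% lower. Its genes divided by kind. All 11 common subunits had positive differences, 3 of them called, with a median of 0.21. All 6 isoforms known to be tissue-specific or linked to hypoxia had negative differences, none of them called, with a median of -0.15. Kind went together with signal level. By mean signal the isoforms ranked from 7.52% (COX7B2) to 48.7% (COX4I2) of genes. The common subunits ranked from 52.0% (COX7C) to 99.7% (COX4I1), apart from COX6A1 at 33.8%. The part of signal level in this division was not tested. The common subunits called were COX8A, COX7A2 and COX7A2L. COX8A had signals of 11.66 and 11.62 with hairpin 45, 11.48 and 11.45 with hairpin 44, and 11.18 and 11.11 in scrambled cells, a difference of 0.41 (SE 0.0635, limma adjusted p = 0.0106). COX7A2 had signals of 8.52 and 8.46 with hairpin 45, 8.27 and 8.11 with hairpin 44, and 8.04 and 7.79 in scrambled cells, a difference of 0.43 (SE 0.0962, limma adjusted p = 0.0310). COX7A2L, a factor in joining complexes III and IV into supercomplexes, was just past the threshold, at 8.04 and 8.03 with hairpin 45, 7.76 and 7.81 with hairpin 44, and 7.63 and 7.70 in scrambled cells, a difference of 0.24 (SE 0.0634, limma adjusted p = 0.0486), and leaving out any 1 array ended its call, with limma adjusted p between 0.0925 and 0.137.

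The isoforms were set beside their common partners. COX7B2, a testis isoform, had signals of 3.76 and 4.01 with hairpin 45, 4.08 and 4.08 with hairpin 44, and 4.24 and 4.50 in scrambled cells, a difference of -0.39 (SE 0.110, limma adjusted p = 0.0608). All 4 hairpin arrays lay below the scrambled arrays, and with hairpin 45 alone it was the single gene of the 76 called lower, with a change of -0.49 (SE 0.127, limma adjusted p = 0.0458), a call lost with an intensity trend (adjusted p = 0.0717) and after quantile normalization (adjusted p = 0.0621). Its partner COX7B had signals of 7.85 and 7.84 with hairpin 45, 7.86 and 7.80 with hairpin 44, and 7.80 and 7.79 in scrambled cells, a range that overlapped between groups, and a difference of 0.04 (SE 0.0618, limma adjusted p = 0.711). COX4I2, the isoform known to be raised by hypoxia, had signals of 6.91 and 6.77 with hairpin 45, 6.59 and 6.76 with hairpin 44, and 6.93 and 7.08 in scrambled cells, a difference of -0.25 (SE 0.0895, limma adjusted p = 0.119), and it passed where dim genes were left out (adjusted p = 0.0429). COX4I1, its partner, differed by 0.21 (SE 0.0649, limma adjusted p = 0.0844), with signals of 12.43 and 12.43 with hairpin 45, 12.22 and 12.32 with hairpin 44, and 12.16 and 12.13 in scrambled cells.

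NDUFA4L2, a target of hypoxia-inducible factors known to be high in clear-cell renal carcinoma, had signals of 6.46 and 6.47 with hairpin 45, 6.63 and 6.64 with hairpin 44, and 6.85 and 6.56 in scrambled cells. Its difference was -0.16 (SE 0.0938, limma adjusted p = 0.317), and its hairpin 44 arrays overlapped the scrambled range. NDUFA4 had signals of 8.50 and 8.44 with hairpin 45, 8.26 and 8.44 with hairpin 44, and 8.23 and 7.90 in scrambled cells, a difference of 0.35 (SE 0.114, limma adjusted p = 0.0929). All 4 hairpin arrays of NDUFA4 lay above the scrambled arrays.

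In the remaining pairs the hairpin and scrambled arrays of each isoform overlapped. COX6A2, a muscle isoform, had signals of 6.59 and 6.49 with hairpin 45, 6.86 and 6.86 with hairpin 44, and 6.68 and 7.03 in scrambled cells, a difference of -0.16 (limma adjusted p = 0.393), and COX7A1, the muscle partner of COX7A2, had signals of 5.54 and 5.15 with hairpin 45, 5.03 and 5.41 with hairpin 44, and 5.45 and 5.42 in scrambled cells, a difference of -0.15 (limma adjusted p = 0.559). COX6B2, a testis isoform, had signals of 5.80 and 5.73 with hairpin 45, 5.58 and 5.59 with hairpin 44, and 5.65 and 5.90 in scrambled cells, a difference of -0.10 (limma adjusted p = 0.489). COX8C, also of testis, had signals of 4.54 and 4.79 with hairpin 45, 5.17 and 4.69 with hairpin 44, and 5.01 and 4.71 in scrambled cells, a difference of -0.06 (limma adjusted p = 0.847), and the hairpin 44 arrays of COX8C spread more widely than its group difference. Their common partners COX6B1 and COX6A1 were not called. COX6B1 had signals of 8.20 and 8.32 with hairpin 45, 8.42 and 8.26 with hairpin 44, and 8.28 and 8.20 in scrambled cells, a difference of 0.06 (limma adjusted p = 0.678). COX6A1 had signals of 6.06 and 6.35 with hairpin 45, 6.13 and 5.83 with hairpin 44, and 6.01 and 5.96 in scrambled cells, a difference of 0.11 (limma adjusted p = 0.594). This probe set was dim, above only 33.8% of genes. A probe set that also names its pseudogene COX6A1P2 was far brighter, at 12.99 and 12.83 with hairpin 45, 12.72 and 12.79 with hairpin 44, and 12.70 and 12.50 in scrambled cells. It differed by 0.23 (limma adjusted p = 0.135), so the value of COX6A1 is uncertain. The difference between an isoform and its partner was not tested.

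**Figure D3:**
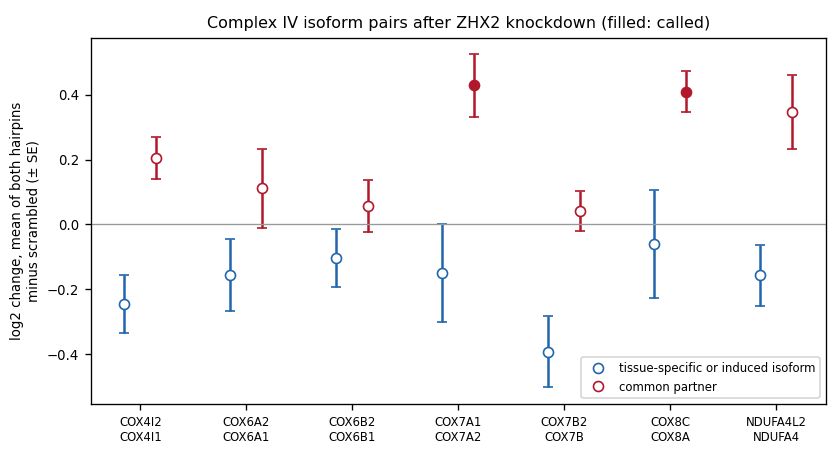
Log2 change, mean of both ZHX2 hairpins minus scrambled, for 7 isoforms (left in each pair) and their common partners (right). Bars are the SE of limma and filled points have an adjusted p under 0.05, and the 7 isoforms lie below 0 and the 7 partners above it.

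The hairpins were also taken one at a time, each against the same scrambled arrays. With hairpin 45, 32 genes were called higher and 1 lower, beside 13% and 7.11% of all genes, and the median was 0.28. By complex, 17 genes of complex I, 0 of complex II, 4 of complex III, 5 of complex IV and 6 of complex V were called higher with it. The median with hairpin 44 was 0.15. That hairpin called 2 genes higher (2.63%), a smaller share than the 4.79% of all genes, and 0 lower, beside 2.84%. These were NDUFB6, which differed by 0.38 (SE 0.0820, limma adjusted p = 0.0477), and ATP5MC1, which differed by 0.45 (SE 0.0892, limma adjusted p = 0.0411). With hairpin 45 their differences were 0.82 (SE 0.0820) and 0.61 (SE 0.0892). Before adjustment, 52 genes (68.4%) had a p under 0.05 with hairpin 45, against 33.5% of all genes, and 28 (36.8%) with hairpin 44, against 24.5%. The 33 calls with hairpin 45 came to 3, all higher, when either of its own arrays was left out, beside 3.21% and 2.99% of all genes called higher, so that the share of subunit genes was then near that of all genes. They came to 17 without scrambled replicate 2 (16 higher, beside 7.02%), to 20 when either array of hairpin 44 was left out (all higher, beside 9.19%), and to 34 without scrambled replicate 1 (32 higher, beside 12.1%). The 2 calls with hairpin 44 came to 1 without scrambled replicate 1 and to 0 without any of the other 5 arrays. They came to 24, all higher, with an intensity trend (beside 11.7% of all genes called higher), and to 19 higher and 1 lower among genes at or above the 40th percentile (beside 17.6% and 8.93%).

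Hairpin 45 against hairpin 44 was tested as a contrast of its own, which does not use the scrambled arrays other than for the spread. It called 0 of 76 genes in limma, beside 0.129% of all genes higher with hairpin 45 and 0.267% lower. Before adjustment 21 genes (27.6%) had a p under 0.05, against 15.1% of all genes. When the moderation followed signal intensity, 10 were called, all higher with hairpin 45, beside 4.1% of all genes higher and 2.44% lower. The difference was positive in 65 of 76 genes, with a median of 0.15. NDUFAB1 had the largest difference, 0.45 (SE 0.0918, limma adjusted p = 0.136), and NDUFB6 differed by 0.43 (SE 0.0820, limma adjusted p = 0.119). ZHX2 itself differed by -0.39 between hairpin 45 and hairpin 44 (SE 0.0862), which did not pass either (limma adjusted p = 0.153).

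Promoters of respiratory genes are known to hold sites of NRF1, of ETS family factors such as GABP, and of YY1. RefSeq windows of 300 bases (250 before and 50 after the start, build GRCh38.p14) matched 72 of the 89 subunit genes, and were searched on both strands beside the windows of 15843 protein-coding genes. A gene was counted if any of its windows held the letters, and some genes had more than 1 window, such as NDUFC1 with 4. The NRF1 letters GCGCATG were held by 15 of 72 genes (20.8%) and by 6.82% of all. The ETS letters CCGGAAG were held by 21 (29.2%) and by 16.5% of all, and the YY1 letters AAGATGG by 18 (25%) and by 7.90% of all. The hypoxia response core, ACGTG or GCGTG, was held by 46 (63.9%) and by 61.9% of all. Among genes called higher with a window, 2 of 21 held the NRF1 letters, 6 the ETS letters, 5 the YY1 letters and 15 the hypoxia core. Among 41 measured genes not called, 11 held each of the first 3 and 22 the hypoxia core. A match is a description of the letters and not a bound site.

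Windows of 4 called genes and of SDHD, which was not called, are shown to set the letters beside the changes, with NRF1, ETS and YY1 matches in capitals and each read 5′ to 3′ on the strand of its gene. That of NDUFA6 (chr22:42090723-42091022, minus strand) holds NRF1 letters on the opposite strand and YY1 letters, that of NDUFS3 (chr11:47578824-47579123, plus strand) ETS letters on each strand, and that of ATP5PO (chr21:33915755-33916054, minus strand) YY1 letters. That of NDUFB6 (chr9:32573110-32573409, minus strand) holds none of them in these letters. Whether the letters go with the changes was not tested. That of SDHD (chr11:112086623-112086922, plus strand) holds overlapping NRF1 letters of both strands and ETS letters.
NDUFA6: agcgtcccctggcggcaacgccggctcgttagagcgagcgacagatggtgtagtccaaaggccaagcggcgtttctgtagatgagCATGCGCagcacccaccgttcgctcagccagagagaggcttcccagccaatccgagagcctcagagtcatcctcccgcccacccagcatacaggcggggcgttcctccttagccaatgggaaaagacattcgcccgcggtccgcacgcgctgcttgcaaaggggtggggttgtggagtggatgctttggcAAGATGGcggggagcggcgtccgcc
NDUFS3: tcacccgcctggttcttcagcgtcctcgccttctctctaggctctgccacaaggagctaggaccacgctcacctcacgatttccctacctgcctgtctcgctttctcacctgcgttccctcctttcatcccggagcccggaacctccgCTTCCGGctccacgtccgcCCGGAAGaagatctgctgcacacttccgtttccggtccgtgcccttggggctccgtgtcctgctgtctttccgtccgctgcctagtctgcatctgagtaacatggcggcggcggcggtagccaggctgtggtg
ATP5PO: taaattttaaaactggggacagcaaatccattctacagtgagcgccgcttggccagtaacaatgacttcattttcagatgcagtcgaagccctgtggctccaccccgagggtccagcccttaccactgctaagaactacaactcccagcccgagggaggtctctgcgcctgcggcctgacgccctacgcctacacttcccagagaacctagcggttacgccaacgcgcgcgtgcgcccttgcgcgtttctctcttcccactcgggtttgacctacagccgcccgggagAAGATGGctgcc
NDUFB6: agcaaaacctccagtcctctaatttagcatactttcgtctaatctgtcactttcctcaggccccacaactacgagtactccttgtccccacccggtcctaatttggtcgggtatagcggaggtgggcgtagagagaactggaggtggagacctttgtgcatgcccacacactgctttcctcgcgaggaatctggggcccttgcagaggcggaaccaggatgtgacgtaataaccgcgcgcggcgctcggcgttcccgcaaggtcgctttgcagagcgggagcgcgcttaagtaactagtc
SDHD: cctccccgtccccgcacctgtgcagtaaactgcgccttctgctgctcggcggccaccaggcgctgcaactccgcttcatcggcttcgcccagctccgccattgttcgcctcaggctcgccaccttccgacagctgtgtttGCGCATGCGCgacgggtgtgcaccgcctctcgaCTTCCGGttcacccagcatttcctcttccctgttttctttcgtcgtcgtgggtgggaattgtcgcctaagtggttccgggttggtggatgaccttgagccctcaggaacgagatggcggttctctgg

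Genes that serve the same complexes without being subunits were counted in the same fit, by lists chosen with earlier results of these data known. In this fit 11.9% of all genes were called higher and 6.41% lower. Assembly factors of complex I had 5 of 15 called higher and 0 lower after ZHX2 knockdown, with a median of 0.19. These included NDUFAF4, at 0.68 (SE 0.0756, limma adjusted p = 0.00448), and ECSIT at 0.40. For complex II, SDHAF2 (0.37) and SDHAF3 (0.58) of 4 were called higher. SDHAF4 differed by -0.28 and was not called (limma adjusted p = 0.0644), but with hairpin 45 alone it was called lower (-0.38, limma adjusted p = 0.0388). For complex III 4 of 6 were called higher, with a median of 0.29, and these were UQCC1, UQCC2, UQCC3 and BCS1L, which inserts the iron-sulfur subunit. For complex IV 6 of 18 were called higher and 1, COA5 (-0.28), lower, with a median of 0.12. Those higher included COA7 (0.78), TACO1 (0.49), a translational activator of a mitochondrially encoded subunit, and LRPPRC (0.42), which stabilises mitochondrial messenger RNA. For complex V 1 of 3, TMEM70 (0.45), was called higher. CYCS, which encodes the electron carrier cytochrome c, was called higher at 0.62 (SE 0.0977, limma adjusted p = 0.0111).

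Of 12 nuclear regulators of respiratory genes, 6 were called higher (beside 11.9% of all genes) and 0 lower (beside 6.41%), with a median of 0.30. They were the coactivators PPRC1 (0.80) and PPARGC1B (0.41), the GABP subunit GABPB1 (0.69), and the mitochondrial transcription proteins TFB2M (0.70), TFAM (0.48) and POLRMT (0.33). PPRC1 had signals of 10.56 and 10.59 with hairpin 45, 10.26 and 10.34 with hairpin 44, and 9.65 and 9.62 in scrambled cells (SE 0.0643, limma adjusted p = 0.00218), with the groups apart. NRF1 itself differed by 0.26 and PPARGC1A by -0.05, and neither was called (limma adjusted p = 0.0685 and 0.645). Of 10 TCA cycle genes measured, 5 were called higher and 0 lower, with a median of 0.24. IDH3A and IDH3B, subunits of isocitrate dehydrogenase, differed by 0.67 and 0.51, and CS, citrate synthase, was at the edge with 0.23 (limma adjusted p = 0.0498).

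**Figure D4:**
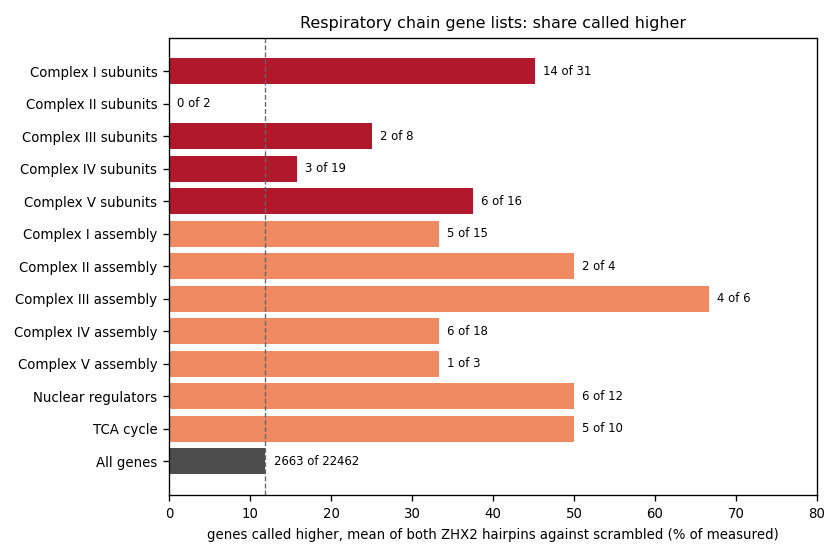
Share of measured genes called higher (limma adjusted p under 0.05) in the mean of both ZHX2 hairpins against scrambled, for the subunits of each complex (dark red), related gene lists (orange) and all 22462 genes (grey, and dashed line at 11.9%). The counts stand beside the bars, from 0 of 2 for complex II subunits to 4 of 6 for complex III assembly factors.

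The comparison of p65 shRNA with control shRNA asked the same of the NF-kB subunit. No subunit gene was called in either direction by limma, beside 0% of all genes called higher and 0% lower, although RELA differed by -2.50. Before adjustment, 7 of 76 genes (9.21%) had a p under 0.05, a lower share than the 14.3% of all genes. The median over the 76 was 0.04, with 34 differences negative, against 0.00686 over all genes. Both p65 arrays lay above both controls in 24 genes (31.6%) and below them in 18 (23.7%), beside 23.4% and 22.7% of all genes. By complex the medians were 0.07 in complex I, 0.16 in complex II, 0.22 in complex III, -0.09 in complex IV and -0.01 in complex V. Assembly factors, regulators and TCA cycle genes had 0 calls too in this fit.

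When limma's moderation followed signal intensity, 2 of the 76 were called, both higher, beside 1.36% of all genes higher and 2.48% lower, and RELA was among those lower (adjusted p = 0.00136). UQCRHL had signals of 8.22 and 8.02 with p65 shRNA, against 6.98 and 7.08 with control shRNA, a difference of 1.09 (SE 0.177, limma adjusted p = 0.106 without the trend and 0.00503 with it). Once more, the probe set that names both UQCRH and UQCRHL disagreed, with a difference of -0.13 (limma adjusted p = 0.898). UQCR11, the smallest accessory subunit of complex III, had signals of 7.47 and 7.45 with p65 shRNA, against 6.89 and 6.91 with control shRNA, a difference of 0.56 (SE 0.163, limma adjusted p = 0.239 without the trend and 0.0469 with it). Both arrays of each group lay close together in UQCR11. Of the related gene lists, the assembly factors NDUFAF8 (0.63) and COA3 (0.54) were also called higher with the trend (limma adjusted p = 0.0278 and 0.0459).

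After UQCRHL, the largest p65 differences were those of 2 accessory genes of complex I. NDUFB5 had signals of 4.94 and 4.47 with p65 shRNA, against 3.91 and 4.12 with control shRNA, a difference of 0.69 (SE 0.226, limma adjusted p = 0.279). NDUFA10 had signals of 5.09 and 5.41 with p65 shRNA, against 4.46 and 4.67 with control shRNA, a difference of 0.68 (SE 0.200, limma adjusted p = 0.241). In both genes the p65 arrays lay above the controls, and after ZHX2 knockdown they had differed by 0.14 and 0.23, with 0 calls. Genes called higher after ZHX2 knockdown had p65 differences of either sign. NDUFB6, NDUFAB1 and NDUFS3 differed by -0.06, 0.28 and -0.02 with p65 shRNA, and COX8A, ATP5MC1 and ATP5F1D by -0.51, -0.35 and -0.56. COX8A had signals of 9.06 and 9.40 with p65 shRNA, against 9.60 and 9.88 with control shRNA (SE 0.211, limma adjusted p = 0.367), and its groups did not overlap. The isoforms COX4I2, COX7B2 and NDUFA4L2 differed by 0.21, 0.20 and 0.26, with SE of 0.193, 0.169 and 0.318, and none passed the test.

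**Figure D5:**
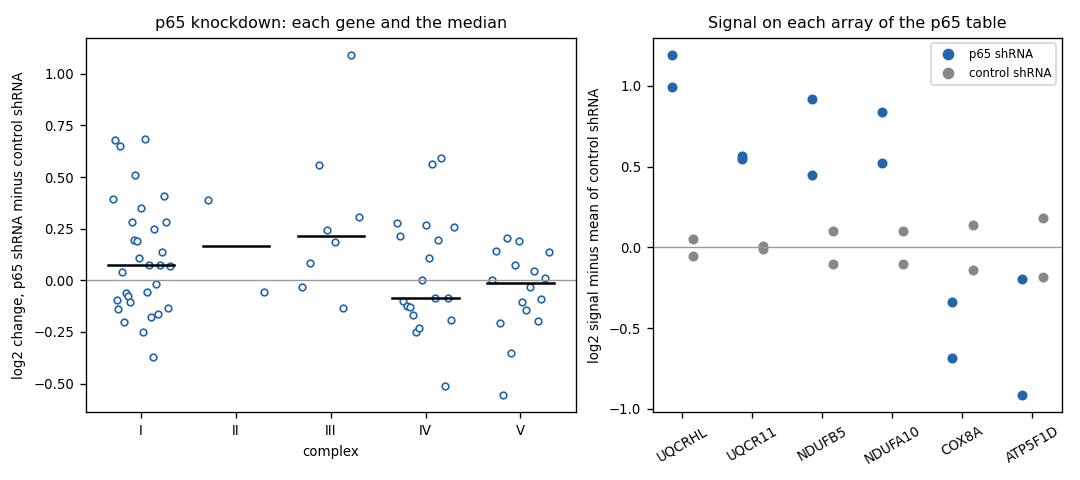
Left, log2 change of each of the 76 genes with p65 shRNA against control shRNA by complex, with the median as a line, and right, signal of 6 genes on each of the 4 arrays of the p65 table relative to the mean of the control arrays, p65 shRNA left of control. The left panel spreads on both sides of 0 in complexes I, II, III, IV and V, and UQCRHL lies highest at 1.09.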

How the data were processed

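Total RNA of 786-O cells was hybridised to Affymetrix arrays, per the labels' protocols. The authors deposited log2 signals made by RMA, per the submitters' processing notes, in a ZHX2 table of 6 arrays and a p65 table of 4 arrays with the same 53617 probe sets. The program that ran RMA, and its version, are not named in the labels or files. RMA signals of low probe sets are compressed, which understates their changes, and no detection measure was used here.

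Probe sets were named by joining both platform annotations, with symbols updated through the RefSeq gene table of GRCh38.p14. This gave 24525 probe sets with 1 gene, for 22462 genes. A further 1797 with several genes, 99 with different genes and 27196 with no gene were left unnamed. For the 1116 genes with several probe sets, the one with the highest mean over the arrays of a table was used.

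Groups came from the sample titles. Each table was fitted on its own in R 4.3.3 with limma 3.58.1, by group means and empirical Bayes without a trend, with 3 residual degrees of freedom in the ZHX2 table and 2 in the p65 table. Tests were two-sided, with Benjamini-Hochberg adjustment over all 22462 genes, and a gene was called at an adjusted p under 0.05. Every adjusted p is from limma, and SE is its moderated standard error. The same code was also run on simulated data, with 200 changed genes, and the outcome of that run is not given here.

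The members and the related gene lists were chosen with earlier results of these data known. Genes named are all subunit genes called in the mean of both ZHX2 hairpins, and those called for p65 with an intensity trend. Also named are the 3 smallest and the largest p of each complex, isoform pairs, and the 3 largest p65 changes. Subunit genes called with a single hairpin alone were not all named. ATP5MG, ATP5F1C, the uncalled core subunits and the uncalled c ring genes were named after their values were seen. The alternatives were moderation with an intensity trend or with robust fitting, arrays centred on the median or quantile normalized, dim genes left out below the 40th percentile, probe sets averaged per gene, a block for the replicate number, a 1.5-fold minimum, fits of only the compared groups and each array left out. Probe sets that name several genes were an alternative added after seeing the data.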

Additional observations from a re-analysis of the deposited data

Results flagged for a closer look

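The arrays of SDHD and ATP5IF1 lay on opposite sides of the scrambled arrays with the 2 hairpins, though neither gene was called with either hairpin. Both SDHD arrays of hairpin 45 lay above the scrambled arrays and both of hairpin 44 below them, a log2 difference of 0.36 between hairpins (limma adjusted p = 0.127). For ATP5IF1 the difference was 0.19 (limma adjusted p = 0.304). Its lower hairpin 45 array, at 7.7892, was all but tied with its higher scrambled array, at 7.7878. How many of all genes show such a pattern was not counted. Neither difference passed the test between hairpins.

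Probe sets that name several genes, which the comparisons did not use, held called differences in the mean of both ZHX2 hairpins. The probe set naming NDUFS3 and PTPMT1 differed by 0.36 (limma adjusted p = 0.0255), that naming NDUFC2, KCTD14 and their readthrough gene by 0.43 (limma adjusted p = 0.0130), and that naming ATP5F1E, PRELID3B and a readthrough gene by 0.38 (limma adjusted p = 0.0144). These probe sets cannot say which of their genes changed.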

How the results depend on the processing

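The count of subunit genes called was 25 for the mean of both ZHX2 hairpins, 2 for hairpin 44, 33 for hairpin 45, 0 between hairpins and 0 for p65. With an intensity trend it was 39 for both hairpins, 24 for hairpin 44, 10 between hairpins and 2 for p65, all higher, beside 17.3%, 11.7%, 4.1% and 1.36% of all genes called higher. Without genes below the 40th percentile, which kept 71 subunit genes, it was 42 for both hairpins, 20 for hairpin 44 and 4 between hairpins. These held 41 higher and 1 lower, 19 higher and 1 lower, and 4 higher. Of all genes kept, 27.6%, 17.6% and 3.41% were called higher and 13.9%, 8.93% and 2.61% lower. Quantile normalization gave 21 for hairpin 45, all higher, beside 9.83% of all genes called higher, and kept 16 of the 25. Fits of only the compared groups gave 0 for hairpin 44 and 20 for hairpin 45, all higher, beside 1.35% and 9.19% of all genes called higher. A 1.5-fold minimum left 3 for both hairpins, 0 for hairpin 44 and 6 for hairpin 45, and the share of all genes at this minimum was not counted. Leaving out each array in turn gave 5 to 26 for both hairpins, 0 to 1 for hairpin 44, 3 to 34 for hairpin 45, and 0 between hairpins and for p65. The cause of these shifts was not tested, beyond the fewer genes or arrays that an alternative holds. With probe sets that name several genes the counts were 27, 2, 36, 0 and 0. Deviations of same-numbered arrays correlated with r of -0.0263 to 0.0539, so no large shared deviation was seen. This cannot say whether same-numbered arrays were made together. With the replicate number as a block the counts were 21, 0, 23, 0 and 0. These held 20 higher and 1 lower for both hairpins, and 22 higher and 1 lower for hairpin 45. Of all genes, 9.65% were then called higher for both hairpins, 2.08% for hairpin 44 and 10.8% for hairpin 45. No sign changed under the alternatives among the calls followed, which were all 25 for both hairpins, both for hairpin 44 and 28 of the 33 for hairpin 45. Signal close to background limits the dim isoforms.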
